A study of Macaca fascicularis with 64 samples.

Results

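Wild-type newborn brain of the cynomolgus monkey (Macaca fascicularis) was compared with muscle, thymus, liver, heart, lung and kidney of newborns with the same 2 animal numbers. The comparison used 28 of the 64 libraries of the series: 4 of brain and 24 of the other 6 tissues, with 2 repeat libraries for each tissue of newborns WT2 and WT3. Expression was measured by bulk RNA sequencing and deposited as FPKM, a level scaled to the length of the transcript and to the mapped fragments of the library. For each gene log2(FPKM + 1) was averaged over the 2 repeat libraries, so that each tissue had n = 2 animals, and brain was set against each other tissue. Of 28141 genes in the table, 14932 had a mean of 1 FPKM or more over the 28 libraries and were tested.

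The series concerns monkeys deficient in SIRT6, a nuclear deacetylase of the sirtuin family, and its title names developmental retardation. Besides the wild-type newborns it holds newborns KO2 and KO3, labelled SIRT6 mutant, with the same 7 tissues and 2 libraries each, and 8 libraries of wild-type fetal brain and muscle at gestation month 2 or 4. Both animals of the tissue comparison are labelled wild type and are newborns, and the mutant and fetal libraries did not choose the genes. Titles give the animal numbers, but no label says that libraries sharing a number come from 1 animal or whether repeats are separate pieces of tissue, so p-values measure the spread between these samples. No label names the part of the brain that was taken.

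Brain is built of neurons, which signal through synapses, and of glia: astrocytes that clear transmitters, oligodendrocytes that wrap axons in myelin, and microglia, its resident macrophages. Neurons fill their axons with microtubules and neurofilaments and release transmitter from vesicles by SNARE-driven fusion. The tissue is poor in fibroblasts and collagen outside the meninges and vessels, and most of its cells show little antigen presentation. In bulk tissue, fewer cells of a type and less RNA per cell cannot be told apart.

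Brain differed from each of the 6 tissues in many genes. At a Benjamini-Hochberg adjusted p under 0.05 in limma, 4851 genes (32.5% of those tested) were higher and 2531 (17%) lower in brain than in muscle, 4121 (27.6%) higher and 3986 (26.7%) lower than in thymus, and 5246 (35.1%) higher and 2897 (19.4%) lower than in liver. Against heart 4366 (29.2%) were higher and 2597 (17.4%) lower in brain, against lung 3644 (24.4%) and 3831 (25.7%), and against kidney 2873 (19.2%) and 4325 (29%). The split moved with the scaling: higher genes made up 65.7%, 64.4% and 62.7% of the calls against muscle, liver and heart, and 47.4%, 47.8% and 46.7% after quantile normalisation. The median brain-minus-tissue difference over all tested genes was 0.24 for muscle, 0.25 for liver, 0.14 for heart, -0.03 for thymus, -0.05 for lung and -0.24 for kidney on the log2(FPKM + 1) scale as deposited.

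**Figure D1:**
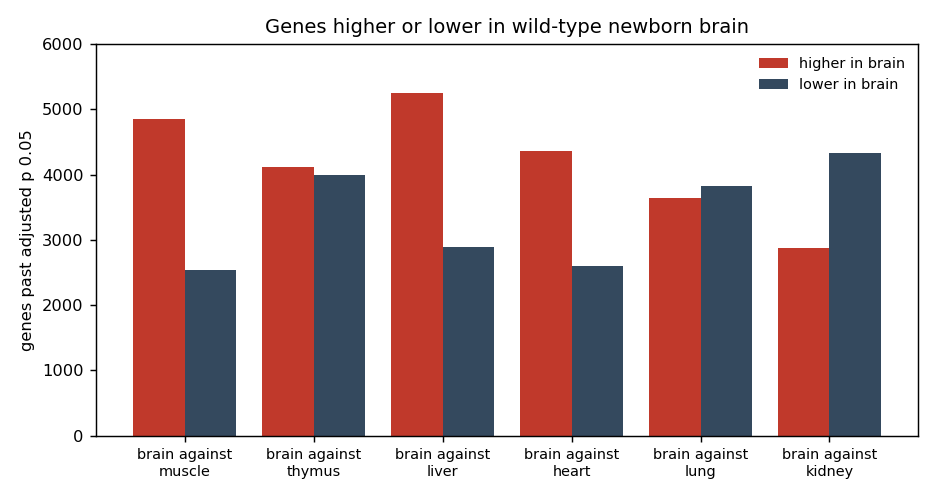
Bars give the number of the 14932 tested genes that were higher (red) or lower (dark) in wild-type newborn brain than in each of the 6 other tissues at a limma adjusted p under 0.05. The excess of higher over lower genes is largest against liver, 5246 against 2897, and lower genes are the more numerous against lung and kidney, with 2873 higher against 4325 lower for kidney.

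Depth and composition bear on these values. Brain libraries had 13070 to 13243 genes at 1 FPKM or more, and their 10 most abundant genes took 4.9 to 5.2% of all FPKM, against up to 23.1% in a liver library. Repeat libraries correlated at r = 0.991 or above over tested genes in each tissue, the brains of the 2 animals at 0.975, and brain with the other tissues at 0.416 (liver) to 0.573 (heart). Absolute read depth is unknown from FPKM, and no counting interval is given. SIRT6 averaged 12.3 FPKM in brain and between 7.35 and 11.3 FPKM in the other tissues, and did not pass the threshold in all 6 comparisons (largest limma adjusted p = 0.71, against kidney).

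Genes were called highest in brain when they were higher there, past the threshold, in all 6 comparisons, and 1861 of 14932 (12.5%) met that. Lowest in brain, by the same rule downward, were 454 genes (3.04%), or 238 without the brain of WT2. After quantile normalisation there were 1738 and 811, of which 1680 and 404 were among those called as deposited. The difference to the nearest other tissue had a median of 2.11 log2 units among the highest genes and was 1 or more in 1593, 3 or more in 610 and 5 or more in 147. Among the lowest genes its median was -1.13, and 273 lay 1 or more below. The groups did not overlap in 1855 of the 1861 highest genes, with all 4 brain libraries above all 24 others, and in 442 of the 454 lowest, against 16.1% and 6.57% of all tested genes. The calls were made from these same libraries, so the separation follows in large part from the choice and is no independent support. Kidney was the nearest tissue for 636 of the highest genes (34.2%), against 25.3% of all tested genes for which it was the highest of the other 6, and liver for 96 (5.16%, against 9.67%).

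The most distinct gene of brain was STMN2, a stathmin that regulates microtubules in growing axons. Given in the order WT2 first and second library, then WT3 first and second library, as for all brain values that follow, it had 1092, 1062, 1017 and 984 FPKM in brain, against 0 to 1.64 FPKM (median 0) in the 24 other libraries. Its difference to muscle, the nearest tissue, was 9.13 log2 units (SE 0.24, limma adjusted p = 2e-10). TUBB3, the beta tubulin that marks neurons, had 611, 597, 682 and 685 FPKM in brain, against 0 to 0.93 FPKM (median 0.171) elsewhere. Both genes were high in all 4 brain libraries and at or near 0 in every other library.

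SNCB, a synuclein of presynaptic terminals, had 469.9, 459.6, 451 and 435 FPKM in brain, against 0 to 0.594 FPKM (median 0) in the other libraries. SYP, the vesicle membrane protein synaptophysin, had 419.5, 417, 608 and 589 FPKM in brain, against 0.0315 to 1.75 FPKM (median 0.401). Synaptophysin is made by neurons and endocrine cells, and its level was higher in both WT3 brain libraries than in either of WT2. CADM3, a synaptic cell adhesion molecule, had 235, 194, 220.3 and 182 FPKM in brain and was listed at 0 in all 24 other libraries, so no fold is given. GAP43, a membrane protein of growth cones, had 182, 183, 311 and 301 FPKM in brain, against 0 to 1.09 FPKM (median 0.42) elsewhere.

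Glial and interneuron genes were among the 20 most distinct genes too. GFAP, the intermediate filament of astrocytes, had 373, 365, 279.6 and 273 FPKM in brain, against 0.0307 to 1.25 FPKM (median 0.307) elsewhere. FABP7, the fatty acid binding protein of radial glia and astrocytes, had 421, 374, 279.7 and 256 FPKM in brain, against 0 to 0.906 FPKM (median 0.118). SST, the peptide somatostatin of a class of inhibitory neurons, had 136, 121, 653 and 615 FPKM in brain, against 0 to 1.34 FPKM (median 0.23) elsewhere. All 3 were separated from the other tissues in both brains, and SST was higher in WT3 than in WT2. The other 11 of the 20 were NSG2, TTC9B, TMEM59L, CDK5R2, RTN1, TUBB4A, CPLX2, SYT5, C20H16orf45, MT3 and SLC17A7, with differences to the nearest tissue between 7.16 (SLC17A7) and 8.25 (NSG2) log2 units.

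**Figure D2:**
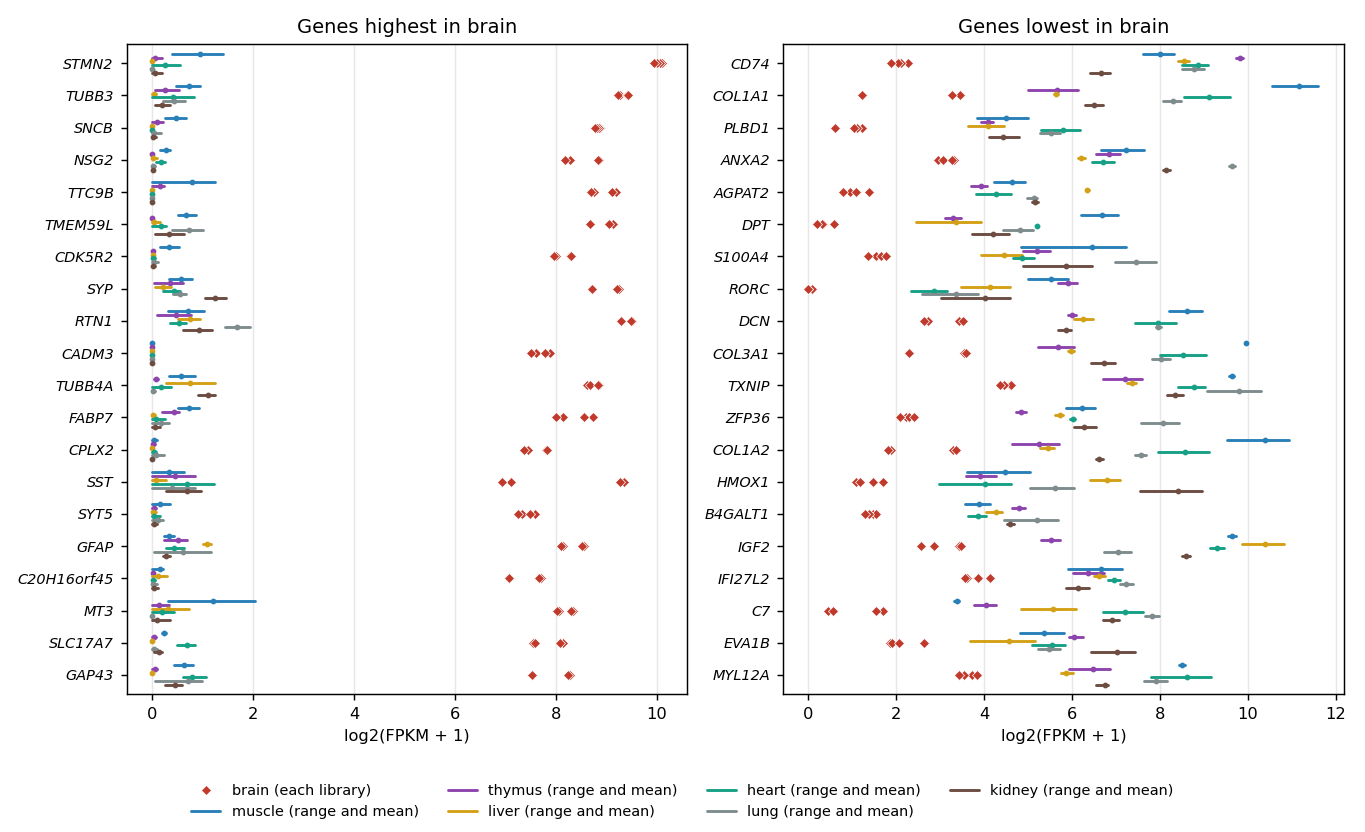
Levels of the 20 genes most above (left) and most below (right) the nearest other tissue in wild-type newborn brain, as log2(FPKM + 1). Red diamonds are the 4 brain libraries, and coloured lines span the 4 libraries of each other tissue with their mean as a dot. Brain lies right of every other tissue for the left genes and left of it for the right genes, with a wider gap on the left.

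Genes of the neuronal cytoskeleton were highest in brain almost without exception: 32 of 34 tested, against 12.5% of all genes tested, with a median difference to the highest other tissue of 4.39 log2 units, against -0.95 over all genes. The summed level of the list was 9180 to 10200 FPKM in the brain libraries and at most 806 FPKM in a library of another tissue, thymus. TUBA1A, the alpha tubulin of migrating neurons, averaged 1124 FPKM in brain, against 98.6 in lung, the nearest tissue. MAPT, the axonal protein tau, averaged 261 FPKM, against 14.98 in muscle. Neurofilament light chain NEFL averaged 168 FPKM, against 9.85 in thymus. DCX, the microtubule protein of migrating young neurons, was lower, with 27.1, 28.4, 14.6 and 15.4 FPKM in brain, and at most 0.124 FPKM elsewhere. The motors KIF5A and KIF5C averaged 157 and 191 FPKM in brain and under 1 FPKM in each other tissue.

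The machinery of vesicle release had 35 of 36 tested genes highest (97.2%, against 12.5% of all genes tested) and a median difference of 4.36 log2 units. In this and the neuronal and glial lists below, a gene low elsewhere was tested only if brain raised its mean to 1 FPKM. The filter thus in part sets the shares called highest. SNAP25, the SNARE of the plasma membrane, had 367, 369, 403 and 419 FPKM in brain, against 0 to 3 FPKM (median 0.322) elsewhere. Its vesicle partner VAMP2 averaged 529.6 FPKM in brain, against 61.8 in kidney. The calcium sensor SYT1 averaged 243 FPKM, against 1.1 in liver, and the fusion clamp CPLX2 had 223, 225, 172 and 163 FPKM in brain, against 0 to 0.172 FPKM (median 0) elsewhere. VAMP1 was the member that did not pass, at 2.13 FPKM in brain, against 2.21 in thymus.

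Excitatory signalling was marked on both sides of the synapse. SLC17A7, the vesicular glutamate transporter of cortical and hippocampal neurons, had 187, 190.4, 279 and 270.2 FPKM in brain, against 0 to 0.802 FPKM (median 0.0638) elsewhere. Of the postsynaptic list, 33 of 36 tested genes were highest (91.7%, against 12.5% of all genes tested), with a median difference of 3.57 log2 units. NRGN, neurogranin, which binds calmodulin in dendrites, had the highest level of any gene in brain, with 2504, 2409, 2740.1 and 2666 FPKM, against 0.845 to 29.6 FPKM (median 6.19) elsewhere. The obligatory NMDA receptor subunit GRIN1 averaged 200.0 FPKM in brain, against 1.7 in kidney. The AMPA receptor subunit GRIA2 averaged 53.7 FPKM in brain, against 0.281 in muscle, and the scaffold DLG4 (PSD-95) 245 FPKM, against 10.9 in thymus. CAMK2A, the kinase of long-term potentiation, averaged 151 FPKM in brain, against 9.74 in muscle.

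Of genes of inhibitory signalling, 22 of 27 tested were highest (81.5%, against 12.5% of all genes tested), with a median difference of 3.83 log2 units. GAD1, which makes GABA, had 62.6, 62.6, 60.9 and 61.5 FPKM in brain, against 0 to 0.317 FPKM (median 0.0211) elsewhere. The vesicular GABA transporter SLC32A1 averaged 36.8 FPKM in brain, against 0.407 in kidney. GABA-A receptor subunit levels in brain were led by GABRA5 at 84.1 FPKM, against 2.17 in kidney. The cerebellar granule cell subunit GABRA6 was listed at 0.016 FPKM.

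Voltage-gated channels were highest in 27 of 31 tested genes (87.1%, against 12.5% of all genes tested), with a median difference of 3.07 log2 units. SCN2A, a sodium channel of axons, had 40.5, 40.9, 35.9 and 38.6 FPKM in brain, against 0 to 0.0252 FPKM (median 0) elsewhere. Its 4 brain libraries were alike and did not overlap with the others. Cell adhesion and guidance genes were highest in 32 of 35 (91.4%, against the same 12.5%). GPM6A, a neuronal membrane glycoprotein of the proteolipid family, led them, at 654 FPKM in brain, against 7.23 in lung. NRXN2, a presynaptic neurexin, averaged 123 FPKM in brain, against 1.87 in kidney.

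Peptides and secretory granule genes were highest in 24 of 30 (80%, against 12.5% of all genes tested). CCK, the peptide cholecystokinin, had 161, 161, 165 and 184 FPKM in brain, against 0 to 1.11 FPKM (median 0.14) elsewhere. CHGA, the granule protein chromogranin A, had 175, 172, 166 and 167 FPKM in brain, against 0 to 0.64 FPKM (median 0.0993). NPY, neuropeptide Y, had 86.3, 75.4, 245 and 232 FPKM in brain, against 0 to 1.39 FPKM (median 0.104). Both NPY values of WT3 exceeded those of WT2, while CHGA was alike in the 4 libraries. CARTPT, a peptide precursor, had 2.2, 2.17, 31.5 and 35.6 FPKM in brain, with the WT2 libraries far below those of WT3.

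Astrocyte genes were highest in 16 of 28 (57.1%, against 12.5% of all genes tested). The glutamate transporters SLC1A2 and SLC1A3 averaged 199 and 193 FPKM in brain, against 8 FPKM in liver and 5.03 FPKM in heart. AQP4, the water channel of astrocyte endfeet, averaged 49.1 FPKM in brain, against 22.6 in lung, a difference of 1.12 log2 units (limma adjusted p = 0.028), a call lost without either brain animal, without lung of WT3, with a pseudocount of 0.1, without a level filter and after quantile normalisation. Members that were not highest included APOE, the lipid carrier, at 1050.0 FPKM in brain, against 7600.3 in liver, and GLUL, which makes glutamine, at 533 FPKM in brain, against 1395 in muscle.

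Oligodendrocyte and myelin genes were highest in 14 of 22 (63.6%, against 12.5% of all genes tested), and the 2 animals differed in them. MBP, myelin basic protein, had 512, 489, 164 and 164 FPKM in brain, against 1.22 to 22.9 FPKM (median 6.99) elsewhere. MOBP, another myelin protein, had 43.1, 46.04, 12.7 and 11.9 FPKM in brain, against 0 to 0.256 FPKM (median 0.0259). In both the WT2 libraries lay above those of WT3, and all lay above the other tissues. The list summed to 1560 FPKM in WT2 and 731 FPKM in WT3 brain. OLIG1, a lineage factor of oligodendrocyte precursors, was alike in the 2 animals, with 34.7, 34.3, 32.9 and 32.9 FPKM, and GPR17, a receptor of newly formed oligodendrocytes, had 25.1, 27.3, 20.6 and 20.6 FPKM.

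**Figure D3:**
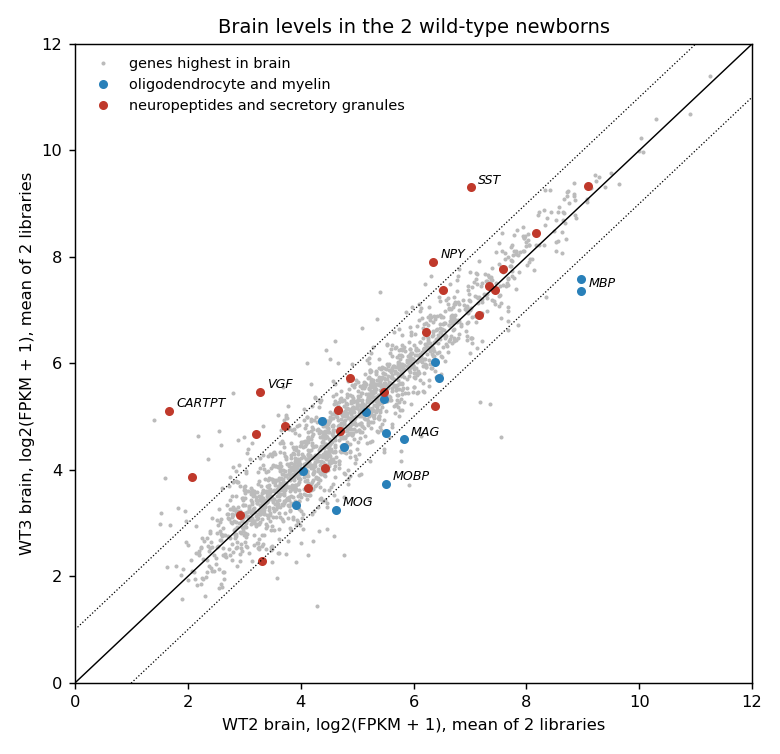
Brain levels of the 1861 genes highest in brain in WT2 (horizontal) and WT3 (vertical), as log2(FPKM + 1) averaged over 2 libraries, with myelin genes in blue and peptide and granule genes in red; those named in the text are labelled where they lie outside the dotted lines. The solid line marks equal levels and the dotted lines a difference of 1 log2 unit. Of 14 myelin genes 5, MAG and MOG among them, lie beyond the dotted line on the WT2 side and 0 beyond that on the WT3 side, and of 24 peptide and granule genes 2 lie beyond it on the WT2 side and 7, VGF among them, on the WT3 side.

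How far the brains of the 2 animals differed was counted over the highest genes with a symbol and 5 FPKM or more. Of these 1716, 103 differed by over 1 log2 unit between WT2 and WT3, and the median difference in size was 0.264. SEMA7A, a semaphorin, averaged 187 FPKM in WT2 and 23.5 FPKM in WT3 brain, while NPTX2, a secreted synaptic pentraxin, averaged 5.97 FPKM in WT2 and 42.3 FPKM in WT3. The layer 4 factor RORB averaged 26.3 FPKM in WT2 and 4.31 FPKM in WT3. Differences between the animals and between the pieces of brain taken cannot be told apart.

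Brain region markers were highest in 11 of 22 tested and lowest in 0, with a median difference of 0.47 log2 units to the highest other tissue, and 19 of the 41 in the table were under 1 FPKM in all 4 brain libraries. The cortical factor TBR1 had 15.5, 16.7, 16.7 and 16.1 FPKM in brain, against 0 to 0.0819 FPKM (median 0) elsewhere, and NEUROD6 of cortical projection neurons 22.8, 22.8, 47.7 and 52.9 FPKM, against 0 to 0.0407 FPKM (median 0). Both were high in all 4 brain libraries and at or near 0 in the others. EN1 and EN2, factors of the midbrain and hindbrain, were at 0 and 0.00719 FPKM, and all 34 HOX genes in the table were under 1 FPKM in each brain library, with a sum of 0.0985 to 0.338 FPKM, against 280 to 407 FPKM in kidney. In limma 0 of the 25 HOX genes tested were lowest in brain, adjusted or unadjusted, against 3.04% of all genes tested. Other tissues were at or near 0 as well. Of the list of progenitor and brain factors, 42 were in the table, 24 were tested and 17 were highest (70.8%, against 12.5% of all genes tested). A factor low in the other tissues was tested only if brain raised its mean to 1 FPKM. The filter thus in part sets that share and the share of the region markers. In all 4 brain libraries 10 of the 42 were under 1 FPKM. Among the highest was SOX2, kept by neural stem cells and astrocytes, at 33.2 FPKM in brain, against 1.6 in lung. Of 25 tested cell cycle genes 0 were highest or lowest in limma, against 12.5% and 3.04% of all genes tested. The counts were also 0 at an unadjusted p under 0.05 in all 6 comparisons. The proliferation marker MKI67 averaged 0.167 FPKM in brain, against 39.6 in thymus.

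RNA-binding proteins and repressors of the neuronal list were highest in 16 of 26 tested (61.5%, against 12.5% of all genes tested). PTBP1 and REST, both known from cells outside neurons, were lowest (7.69%, against 3.04%). ELAVL3, a neuronal Hu protein, had 60.5, 60.6, 60.6 and 59.8 FPKM in brain, against 0 to 0.0984 FPKM (median 0.00506) elsewhere, and RBFOX3, the antigen NeuN of mature neurons, 75.7, 67.3, 44.7 and 41.7 FPKM, against 0 to 0.236 FPKM (median 0). PTBP1, the splicing repressor that is turned down as neurons form, had 17.3, 16.4, 18.3 and 18.7 FPKM in brain, against 29.4 to 125 FPKM (median 65.1) elsewhere. REST, a DNA-binding repressor that silences neuronal genes in other cells, had 0.992, 0.921, 1.03 and 0.889 FPKM in brain, against 2.39 to 18.9 FPKM (median 5.7). For both, all 4 brain libraries lay below all 24 others, with differences of -0.82 and -0.86 log2 units to muscle (limma adjusted p = 0.024 and 0.016), and both calls were lost without either brain animal.

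Related genes were compared in 27 chosen families with 101 tested members. Of these families, 21 had a member that was highest in brain and 2 had one that was lowest. By member, 45 of the 101 were highest, against 12.5% of all genes tested. The families were a chosen set, so these counts do not describe gene families at large. The neuronal enolase ENO2 had 223, 226, 277 and 271 FPKM in brain, against 90.7 FPKM on average in thymus and at most 1.94 FPKM in the other 5 tissues. ENO3, the muscle enolase, averaged 0.711 FPKM in brain, against 2833 in muscle. CKB, the brain creatine kinase, averaged 563 FPKM in brain, against 101 in heart and 99.1 in kidney.

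The SNAP-25 family split in opposite directions. SNAP23, the relative used for membrane fusion in non-neuronal cells, was lowest in brain, with 6.05, 5.07, 4.37 and 5.02 FPKM, against 12.2 to 27.2 FPKM (median 21.4) elsewhere. CPT1C, a neuronal relative of the mitochondrial carnitine acyltransferases, averaged 22.2 FPKM in brain, against 2.03 in kidney, while CPT1A averaged 5.35 FPKM in brain, against 131 in liver. All 6 tested 14-3-3 genes were highest, with YWHAE at 428 FPKM in brain, against 183 in kidney, and so were all 4 stathmins and all 3 JNK kinases. TUBB4B, a widely used beta tubulin, was not highest, at 167 FPKM in brain, against 178 in kidney. Without a stated strand setting or rule for multiply mapped reads, levels of close paralogues such as the tubulins are uncertain.

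**Figure D4:**
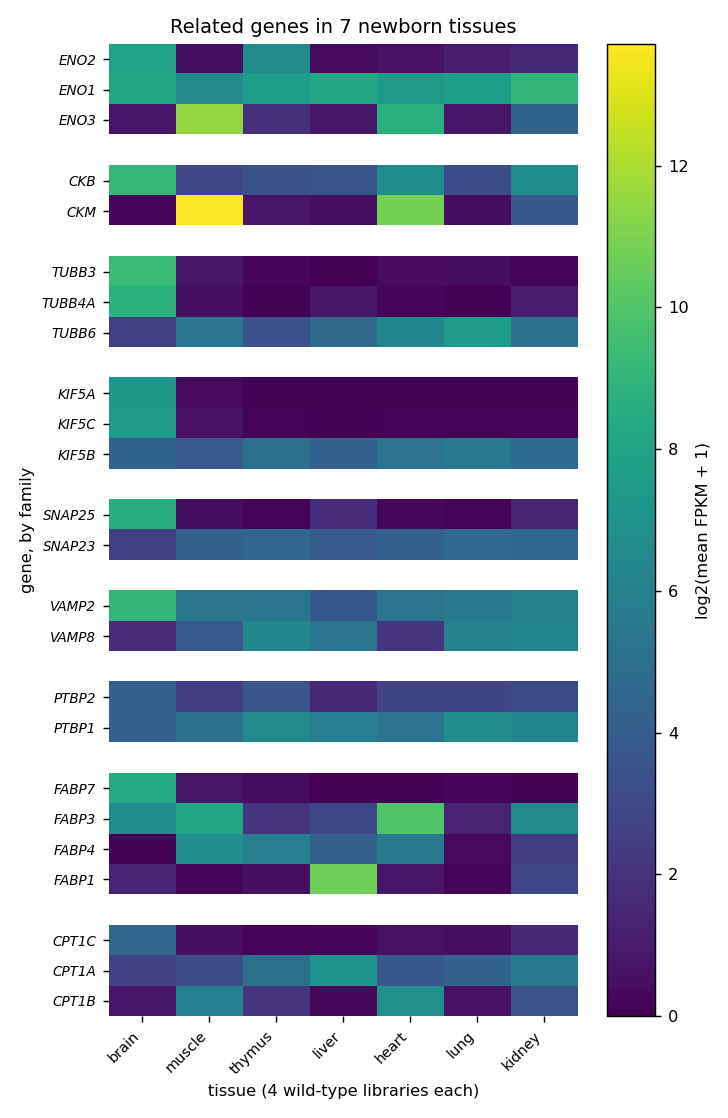
Mean levels of members of 9 gene families in the 7 newborn tissues, as log2 of mean FPKM plus 1, with brain as the first column. The first gene of each family is brighter in brain than in any other tissue, such as SNAP25 and FABP7, though PTBP2 was not called highest. SNAP23 and PTBP1 are darker in brain than in any other tissue.

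Among genes lowest in brain, CD74, the invariant chain of class II antigen presentation, stood furthest below. It had 3.83, 3.31, 3.12 and 2.65 FPKM in brain, against 83.4 to 950.0 FPKM (median 373) elsewhere, and its difference to kidney, the nearest tissue, was -4.56 log2 units (SE 0.28, limma adjusted p = 1e-07). Of 8 tested class II genes only 1 was lowest (2 with the animal as a block or after quantile normalisation), against 3.04% of all genes. The median difference of that list to the lowest other tissue was -0.01 log2 units. Of 17 tested class I genes 5 were lowest (8 with the animal as a block), against 3.04% of all genes. B2M, the light chain of class I molecules, had 532, 542, 549.9 and 552 FPKM in brain, against 2126 to 13297 FPKM (median 4127) elsewhere. The levels of CD74 and B2M were low in all 4 brain libraries and did not overlap with any other library. PSMB8, an immunoproteasome subunit, had 0.611, 0.718, 0.593 and 0.404 FPKM in brain, against 2.44 to 24.1 FPKM (median 5.05).

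Connective tissue genes were low in brain. Fibroblast and meningeal markers were lowest in 10 of 22 tested genes (45.5%) and matrix genes in 10 of 32 (31.2%), against 3.04% of all genes tested. COL1A1, the main chain of collagen I, had 1.33, 1.33, 9.94 and 8.67 FPKM in brain, against 31.1 to 3095 FPKM (median 186) elsewhere. DCN, the proteoglycan decorin, had 5.61, 5.21, 9.71 and 10.4 FPKM in brain, against 50.2 to 498 FPKM (median 129). ITGB1, the integrin beta chain that anchors cells to matrix, had 8.91, 8.66, 12.3 and 12.5 FPKM in brain, against 24.4 to 209.5 FPKM (median 73.9). Brain lay below every other library for these 3, and all 3 were lower in WT2 than in WT3 brain. The fibroblast list summed to 291 to 312 FPKM in brain libraries, against at least 322 FPKM in the other tissues and up to 9100 FPKM in muscle. Its part in the other differences was not tested.

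Brain had a matrix of its own. BCAN, a chondroitin sulphate proteoglycan of the perineuronal matrix, had 105, 104, 99.2 and 99.1 FPKM in brain, against 0 to 0.299 FPKM (median 0.0324) elsewhere. Of 13 tested genes of that list, 8 were highest (61.5%, against 12.5% of all genes tested) and 0 lowest in limma. The list had a summed level of 621 to 628 FPKM in brain libraries, against at most 133 FPKM elsewhere.

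Annexin and S100 genes were lowest in 9 of 27 (33.3%, against 3.04% of all genes tested). ANXA2, a calcium-dependent membrane binding protein, had 6.73, 7.39, 8.88 and 8.65 FPKM in brain, against 69.6 to 829 FPKM (median 128) elsewhere. S100A4, S100A6, S100A10 and S100A11 were lowest as well, S100A11 at 18.6 FPKM in brain, against 70.2 in liver. S100B, made by astrocytes, was highest instead, with 204, 201, 133 and 119 FPKM in brain, against 0 to 9.88 FPKM (median 0.952) elsewhere. Interferon and NF-kB genes were lowest in 9 of 27 (33.3%, against 3.04% of all genes tested). Among them was STAT3, a cytokine-activated factor, at 11.8 FPKM in brain, against 23.9 in heart. The call of STAT3 was lost in 8 of the 14 fits that left out 1 animal in 1 tissue, both brain animals among them. It was also lost without a level filter and with a filter at 1 FPKM in any tissue. NFKBIA, the inhibitor of NF-kB, was lowest at 17.9 FPKM in brain, against 43.5 in liver. Genes of focal adhesions and of YAP and TAZ signalling were lowest in 8 of 28 (28.6%, against 3.04% of all genes tested). They included the cytoskeletal linker TLN1 at 6.62 FPKM in brain, against 19.8 in muscle.

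Single genes low in brain had other roles. IGF2, a fetal growth factor, had 4.93, 6.29, 9.75 and 10.1 FPKM in brain, against 38.2 to 1815 FPKM (median 485) elsewhere. TXNIP, which binds thioredoxin and limits glucose uptake, had 23.1, 23.5, 20.7 and 19.5 FPKM in brain, against 103 to 1250.3 FPKM (median 363). HMOX1, which degrades haem, had 1.11, 1.27, 1.78 and 2.22 FPKM in brain, against 6.82 to 492 FPKM (median 31.8). None of these brain values reached the lowest value of another tissue. HBB, the beta globin of red cells, averaged 329 FPKM in brain, against 1081 in muscle. Of 11 tested red cell genes 2 were lowest in brain (18.2%, against 3.04% of all genes tested).

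Ribosomal protein genes depended on the scaling: as deposited, 16 of 40 tested were lowest (40%, against 3.04% of all genes tested) and 0 highest. After quantile normalisation 2 were lowest and 1 highest, and the difference of 8 of the 16 turned positive. As deposited, the list summed to 21400 to 23700 FPKM in brain libraries, against 29400 to 72300 FPKM in the others. Fatty acid oxidation genes were lowest in 2 of 24 (8.33%, against 3.04% of all genes tested), 5 with the animal as a block and 7 after quantile normalisation. The 2 were ACAA2, a mitochondrial thiolase, at 5.52 FPKM in brain, against 16.6 in lung, and DECR1, a reductase of unsaturated chains. Of 41 oxidative phosphorylation genes 0 were highest or lowest in limma as deposited, also unadjusted, against 12.5% and 3.04% of all genes tested. After quantile normalisation 1 was highest and 1 lowest. COX4I1, a subunit of cytochrome oxidase, averaged 425 FPKM in brain, against 1406 in heart and 245 in lung.

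Cells that brain shares with other organs gave few calls. Of 24 tested microglia and macrophage genes, P2RY12 and CX3CR1 were highest (8.33%, against 12.5% of all genes tested) and 1 was lowest (4.17%, against 3.04%). With the animal as a block 3 were highest and 2 lowest, and after quantile normalisation 3 were lowest. In lists of this size such counts do not set the cells apart from all genes tested. The call of CX3CR1 was lost with a pseudocount of 0.1, with each pair of tissues fitted by itself, without brain of WT3 and without lung of WT2. P2RY12, the purinergic receptor of microglia, had 7.08, 7.2, 14.7 and 14.8 FPKM in brain, against 0.0695 to 0.667 FPKM (median 0.255) elsewhere. C1QA, a complement chain of macrophages, averaged 46.5 FPKM in brain, against 236 in liver. The list summed to 244 to 305 FPKM in brain, against up to 1360 FPKM in liver. Of 23 tested endothelial genes 1 was highest (4.35%, against 12.5% of all genes tested) and 1 lowest (4.35%, against 3.04%), or 2 lowest with the animal as a block. SLCO1C1, a thyroid hormone carrier of the blood-brain barrier, was highest at 7.45 FPKM in brain, against 0.269 in lung. PECAM1, a junction protein of all endothelium, was lowest at 7.53 FPKM in brain, against 21.1 in liver. SLC2A1, the barrier's glucose transporter, averaged 45.8 FPKM in brain, against 24.1 in kidney, and did not pass in every comparison.

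TTR, the abundant product of choroid plexus, averaged 0.667 FPKM in brain, against 12274 in liver, where it is also made, and the choroid markers KCNJ13 and OTX2 were at 0.0515 and 0 FPKM. Choroid and ependymal genes gave 1 call in 10 tested, AQP1, lowest (10%, against 3.04% of all genes tested). Marker lists of muscle and heart, liver, lung, kidney and thymus summed to 51 to 72, 5.9 to 8.33, 36.9 to 38.9, 36.5 to 52.7 and 75.8 to 85.8 FPKM in brain libraries. In limma 0 of their tested members were highest in brain, also unadjusted, which the choice of markers of the compared tissues largely fixed beforehand. Lowest were 1 of 29 muscle and heart members (3.45%) and 1 of 27 liver members (3.7%), against 3.04% of all genes tested. Of the lung, kidney and thymus members 0 were lowest. The thymus list summed to at most 60.5 FPKM in the other 5 tissues and to 4030 to 5660 FPKM in thymus, and the lung list to at most 40.3 FPKM in the other 5 tissues and to 20500 to 22000 FPKM in lung. The part of other cells in the brain values was not tested. The calls of AQP1, DECR1, HMOX1, PECAM1, PSMB8, S100A6, SEMA7A and YWHAE were each lost without at least 1 of the 14 animal means.

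**Figure D5:**
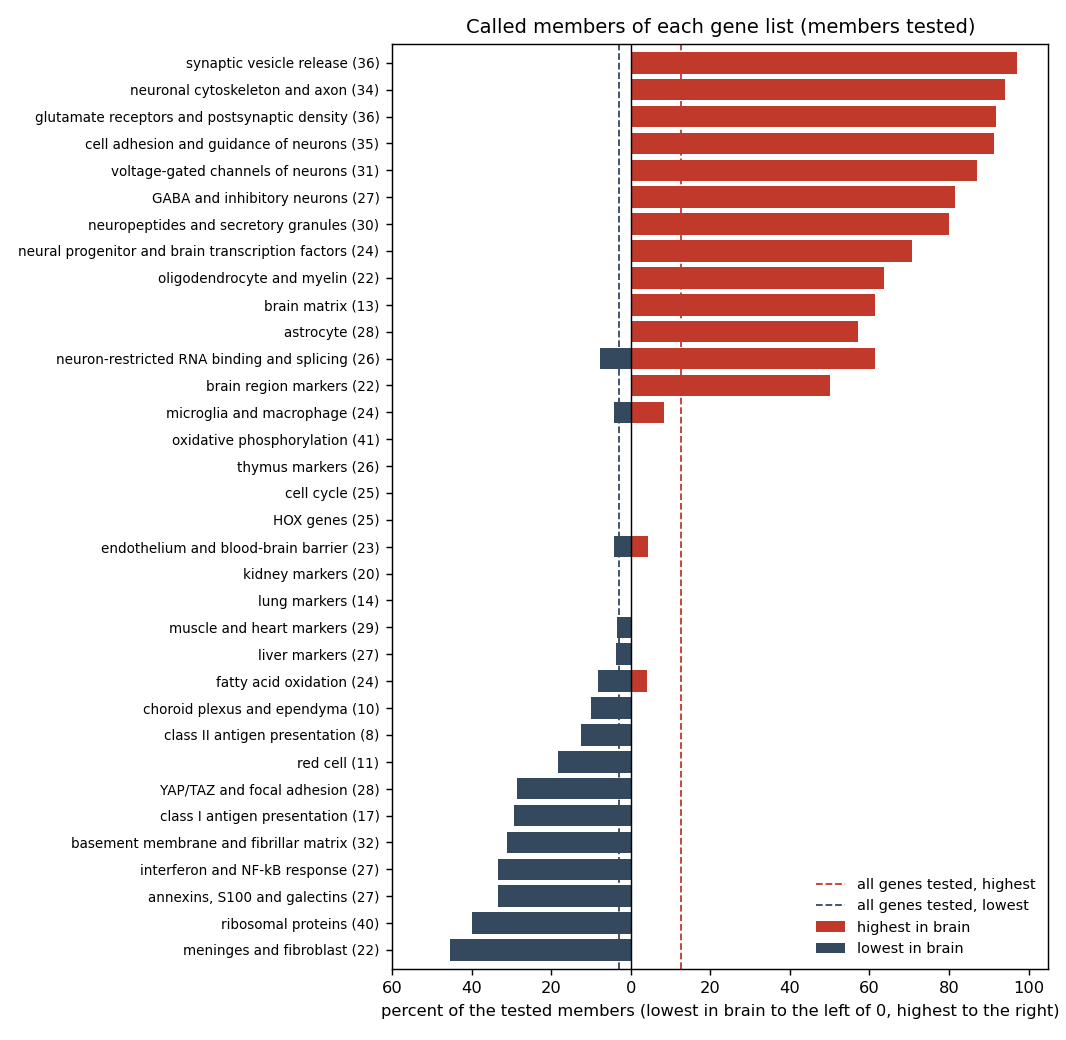
Percent of the tested members of each gene list that were highest (right) or lowest (left) in wild-type newborn brain, with the number tested in brackets and dashed lines at the shares of all genes tested, 12.5% and 3.04%. Neuronal lists fill most of the right side, and the fibroblast, ribosomal, annexin and interferon lists reach furthest left. The place of the ribosomal list depends on the scaling: 16 of 40 were lowest as deposited and 2 after quantile normalisation.

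Some genes were shared by brain and 1 other tissue, higher in brain than in 5 tissues and not past the threshold against the sixth: 257 genes (1.72%) with kidney, 201 (1.35%) with thymus, 95 (0.636%) with lung, 69 (0.462%) with heart, 67 (0.449%) with muscle and 33 (0.221%) with liver. Over all tested genes, the highest of the other 6 tissues was thymus in 30%, kidney in 25.3% and lung in 15.7%. It was muscle in 10.6%, liver in 9.67% and heart in 8.77%. The part of this, and of the scaling, in the shared counts was not tested. POU3F3, a transcription factor of upper cortical layers and of the nephron, averaged 47 FPKM in brain, against 54.2 FPKM in kidney and at most 0.103 FPKM in the other 5. EMX1, a factor of the dorsal telencephalon, averaged 17.6 FPKM in brain, against 20.6 FPKM in kidney. SLIT1, an axon guidance ligand, averaged 29.5 FPKM in brain, against 17.8 FPKM in thymus. NDRG4, known in neurons and heart muscle, averaged 271 FPKM in brain, against 219 FPKM in heart. ENHO, which encodes adropin, averaged 190 FPKM in brain, against 126 FPKM in liver, and HOPX, a homeodomain protein of radial glia and alveolar cells, 101 FPKM in brain, against 219 FPKM in lung, a difference that passed the threshold with the animal as a block and after quantile normalisation. A p that misses the threshold does not show that the tissues have equal levels, and RTN4RL2, a Nogo receptor homologue, was listed as shared with kidney at 37 FPKM in brain, against 13.7 FPKM in kidney.

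Libraries that had no part in the choice were compared next. In the SIRT6-mutant newborns, fitted by themselves, 984 of the 1861 wild-type highest genes (52.9%) were called highest as well, against 6.88% of all tested genes, and 53 of the 454 lowest (11.7%), against 0.455%. The mutant brain mean lay above that of every other tissue for 1726 (92.7%, against 21.5% of all tested genes) and below for 413 (91%, against 18.1%). The mutant brains differed more from each other than the wild-type brains, with a median difference of 0.444 log2 units between KO2 and KO3 and 0.226 between WT2 and WT3. STMN2 averaged 1695 and 1495 FPKM in KO2 and KO3 brain, SYP 85.2 and 471 FPKM and CD74 3.69 and 0.756 FPKM, so that STMN2 was high in both and SYP was lower in KO2.

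In the separately normalised fetal table, all 4 brain libraries lay above all 4 muscle libraries for 1711 of the 1861 highest genes (91.9%), against 35.6% of all tested genes. All 4 lay below muscle for 353 of the 454 lowest genes (77.8%), against 19.3%. Both sets were already required to differ from newborn muscle, unlike the tested genes beside them. The fetal table holds no other tissue, so it cannot show brain above or below the rest. Of the 20 most distinct highest genes, MT3, a metallothionein of neurons and astrocytes, was the exception in fetal brain, while it had 265, 257, 323 and 315 FPKM in newborn wild-type brain, against 0 to 3.09 FPKM (median 0.0774) elsewhere. C7, a complement component made by fibroblasts, was the exception among the 20 most distinct lowest genes.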

How the data were processed

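The deposited newborn table gives FPKM for 28141 genes, made by the authors from TruSeq libraries read on an Illumina HiSeq X instrument, per the labels' protocols. CASAVA, HISAT 0.1.6 and Cufflinks 2.0.2 are named, per the submitters' processing notes, with genome build, annotation and strandedness not given in the sources used here. FPKM is no count, so depth is unknown and no count model was used. Values were taken as log2(FPKM + 1) and averaged over repeat libraries. One limma 3.58.1 fit (R 4.3.3, lmFit, contrasts.fit, eBayes with trend) over the 14 animal means was made for genes with a mean of 1 FPKM or more. Benjamini-Hochberg adjustment ran over all 14932 genes in each comparison, with a threshold of 0.05. Libraries with the same animal number deviated together in all 21 pairs of tissues (r 0.172 to 0.473). The animal as a block, other pseudocounts, filters, scalings and left-out animals were tried as alternatives. The genes named first were the 20 called genes with the largest difference in each direction that had 5 FPKM or more and no overlap of libraries, and up to 3 shared genes per tissue; other list members named as examples were chosen after their values were seen. Some genes are not reported here. Members, lists and rules were chosen with earlier results of these data known.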

Additional observations from a re-analysis of the deposited data

Results flagged for a closer look

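The difference of brain from the mean of the other 6 tissues changed between mutant and wild-type newborns in 147 of 14932 genes at an adjusted p under 0.05 in limma (1552 at an unadjusted p under 0.05), and 10 of the 116 tested genes named above were among them. The difference was lower in mutants in 132 of the 147 and higher in 15, and 121 of the 147 were called highest in wild-type brain. Most genes named above were chosen for a large difference in wild-type brain and genes were tested by their wild-type level, so the direction follows in part from that choice and is no independent support. GPR17 stood at -0.01 in mutants and 3.99 in wild type, a change of -4.00 log2 units (limma adjusted p = 9.5e-05), and SLC1A2 at 4.06 in mutants and 7.01 in wild type, a change of -2.95 (adjusted p = 0.00047). The change was -1.87 for GAD1 and -1.88 for SLC32A1, genes of inhibitory signalling, with limma adjusted p of 0.011 and 0.012. It was -2.01 for MOG and -1.97 for OLIG1 of the oligodendrocyte lineage (limma adjusted p 0.0071 and 0.023), and -2.41 for CX3CR1 and -2.30 for P2RY12 of microglia (0.015 and 0.017). MT3 changed by -1.87 and SCN2A by -1.47 (limma adjusted p 0.032 and 0.042). The brains of KO2 and KO3 had a median difference of 0.444 log2 units, against 0.226 between WT2 and WT3, and the part of that spread in these values was not tested.

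In 4 of 121 genes looked at, 1 of the 4 wild-type brain libraries was set apart. Its gap to the nearest of the others was large relative to the range of the 4. Chance alone would set apart about 1 in 20 groups of 4 independent values. These libraries include repeats that share an animal number, so that rate does not apply, and the rate for them was not computed. The gap can be small in itself: the 4 values of ELAVL3 ran from 59.8 to 60.6 FPKM. The values set apart were 59.8 FPKM for ELAVL3, 11.7 FPKM for SIRT6, 1.49 FPKM for TTR and 0.0288 FPKM for EN2.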

How the results depend on the processing

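Absolute depth is unknown, and each tissue rests on 2 animals. With the animal as a replicate block 2047 genes were highest and 626 lowest, including all 1861 and 454 of the report. Of the counts printed there, those of class I, class II, fatty acid oxidation, microglia and endothelial genes moved by over 1.5 times. HOPX and CPT1A passed against their nearest tissue, and no other named call changed. Filtering at a mean of 5 FPKM tests fewer genes and left 2869, 2569, 3221, 2692, 2214 and 1692 genes higher in brain than muscle, thymus, liver, heart, lung and kidney, 2560 lower than thymus, 1020 highest and 451 shared. Quantile normalisation gave 3818 genes lower than muscle and 811 lowest. Treating 28 libraries as replicates, which counts each repeat library as its own replicate, gave 1001 lowest. Requiring a log2 difference of 1 or more gave 273, by definition the part of the 454 at that distance. The cause of the other shifts was not tested.

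The share of highest genes above every tissue in mutants was 94.2% with a pseudocount of 0.1, 89.5% without a level filter, 94.3% at 5 FPKM, 85.8% with 28 libraries, 90.9% with the block and 95% for differences of 1 or more. The share of lowest genes below every tissue in mutants was 83.7% with 28 libraries and 94.9% for differences of 1 or more. Fetal separation of the highest genes was 81.1% without a filter, 88.9% at 1 FPKM in any tissue, 88.3% with 28 libraries, 93.2% with each pair fitted by itself and 90.3% with the block. Fetal separation of the lowest genes was 63.4% after quantile normalisation, 69.1% with 28 libraries, 81.7% with each pair fitted by itself and 85.3% for differences of 1 or more.

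Leaving out 1 animal in 1 tissue gave 1578 to 1847 highest, 238 to 449 lowest and 586 to 747 shared genes. Genes higher in brain ranged over 3884 to 4921 (muscle), 3419 to 4178 (thymus), 4334 to 5304 (liver), 3463 to 4420 (heart), 2838 to 3686 (lung) and 2341 to 2917 (kidney). Genes lower in brain ranged over 1820 to 2605, 3037 to 4060, 2148 to 2960, 1797 to 2662, 2902 to 3875 and 3104 to 4401 in the same order. Of named genes called highest or lowest, 13 lost the call against the nearest tissue without some animal: AQP1, AQP4, CX3CR1, DECR1, HMOX1, PECAM1, PSMB8, PTBP1, REST, S100A6, SEMA7A, STAT3 and YWHAE. Calls were also lost with a pseudocount of 0.1 (AQP4, CX3CR1), without a level filter (AQP4, STAT3), at 1 FPKM in any tissue (STAT3), with each pair fitted by itself (CARTPT, CX3CR1, DECR1, SEMA7A), after quantile normalisation (AQP4) and for differences of 1 or more (DECR1, PTBP1, REST, STAT3). The sign turned for 4 that were not called: TUBB4B (0.168 without brain WT2, 0.0905 without kidney WT3, lowest -0.375), EMX1 (0.128 without brain WT3, lowest -0.639), VAMP1 (0.176 without brain WT3, 0.109 without thymus WT2, lowest -0.264) and ENHO (-0.0223 without liver WT3, highest 1.65).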
